A study of Danio rerio with 16 samples.

Results

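Epidermis 3 is a class of cells that the authors named in zebrafish tails, next to 3 other epidermis classes. Its members are the cells whose deposited class name is epidermis 3, which were 5576 of the 130661 cells in the whole series. Epidermis 4, 1 and 2 held 6049, 9347 and 1841 cells. The tails were cut at the 10 to 12 somite stage, just behind the last somite that had formed, and transcripts of single cells were counted in droplets, and each captured transcript carried its own identifier (UMI). There were 16 libraries in 4 groups of 4, all from embryos of zebrafish (Danio rerio). DMH1 embryos had BMP signalling inhibited by DMH1, a small molecule that blocks the kinase activity of BMP receptors. SU5402 embryos had FGF signalling inhibited by SU5402, which blocks the kinase activity of FGF receptors. notum-1 embryos had Wnt signalling inhibited through notum-1, where Notum is an extracellular enzyme that removes the lipid Wnt proteins need. WT embryos were wild type without any of these. Each notum-1 library came from a pool of 12 tails and each of the others from a pool of 10 tails. Strain, doses, times and the way notum-1 was supplied do not appear in the sources used here, and the groups share the dissection and the papain digestion.

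In the zebrafish embryo the epidermis is thin. Basal cells lie under a cover of flat periderm cells (the enveloping layer, EVL) and depend on Tp63, a transcription factor that keeps them basal. Ionocytes, which move ions across the skin, are specified among Tp63-positive cells by Foxi3a and Foxi3b. BMP promotes epidermal over neural fate on the ventral side of the embryo, and FGF and Wnt act in the tail bud and in the fin fold that forms from tail epidermis.

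Levels are given in CPM, the UMIs of a gene per 1000000 of the UMIs summed over the epidermis 3 cells of a library. A library held 364 to 438 epidermis 3 cells in DMH1, 229 to 611 in SU5402, 142 to 330 in notum-1 and 280 to 518 in WT. These cells carried 3483599 to 3729665 UMIs per library in DMH1, 637575 to 2930363 in SU5402, 660053 to 2354655 in notum-1 and 1132413 to 2550346 in WT. The shallowest library was SU1 of SU5402, with a median of 2321 UMIs per cell. The median mitochondrial percent of these cells was 3.60 to 4.74 in DMH1, 3.69 to 6.37 in SU5402, 1.02 to 1.26 in notum-1 and 1.37 to 2.18 in WT. Of the cell barcodes, 2107 occurred in more than 1 library, and 2 of these among epidermis 3 cells. Epidermis 3 made up 23.7 to 31.1% of epidermis cells in DMH1, 23.4 to 31.7% in SU5402, 19.1 to 24.8% in notum-1 and 20.4 to 28.02% in WT. These shares are given as depth and were not compared, because tp63, a marker of the class, differed between groups.

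tp63, the basal epidermal marker of the class, was high in it, and the ionocyte markers foxi3a and foxi3b were near 0. In WT, tp63 was at 388 ± 13.9 CPM in epidermis 3 (SD, n = 4 libraries, as for all values below), 452 ± 41.5 CPM in epidermis 4, 211 ± 45.1 CPM in epidermis 1 and 128 ± 24.6 CPM in epidermis 2. Epidermis 3 thus ranked 2nd of the 24 classes present in all WT libraries, and its libraries (379 to 408 CPM) lay below those of epidermis 4 (412 to 499 CPM). In presomitic mesoderm (PSM), a tissue that should lack it, tp63 was at 9.84 CPM. foxi3a was at 2.64 ± 2.40 CPM in epidermis 3, 43.1 CPM in epidermis 1 and 911 ± 294 CPM in the class that the authors call mucus producing cells. foxi3b was at 0.13 CPM in epidermis 3, 0.40 CPM in PSM and 550.2 ± 152 CPM in mucus producing cells. Among single WT cells, a UMI of tp63 was found in 67.4 to 86.8% of epidermis 3 cells and in 2.303 to 7.33% of PSM cells, with median depths over the pooled cells of 4535 UMIs in epidermis 3 and 4259 UMIs in PSM. A UMI of foxi3a was found in 0.579 to 2.08% of epidermis 3 cells and 0.138 to 0.658% of PSM cells, and one of foxi3b in at most 0.224% of epidermis 3 cells and 0.296% of PSM cells. With each cell thinned to 2000 UMIs, which left 1528 of 1532 WT epidermis 3 cells, the share was 48.6 to 52.5% for tp63, 0.194 to 1.40% for foxi3a and 0% for foxi3b. The 10 ionocyte transcription factors on the list used here summed to 698 ± 71.1 CPM, and tfap2a and tfap2c, which are also general epidermal factors, made up 254 and 435 CPM of that. The class is therefore called by its deposited name, with no ionocyte identity given to it.

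**Figure D1:**
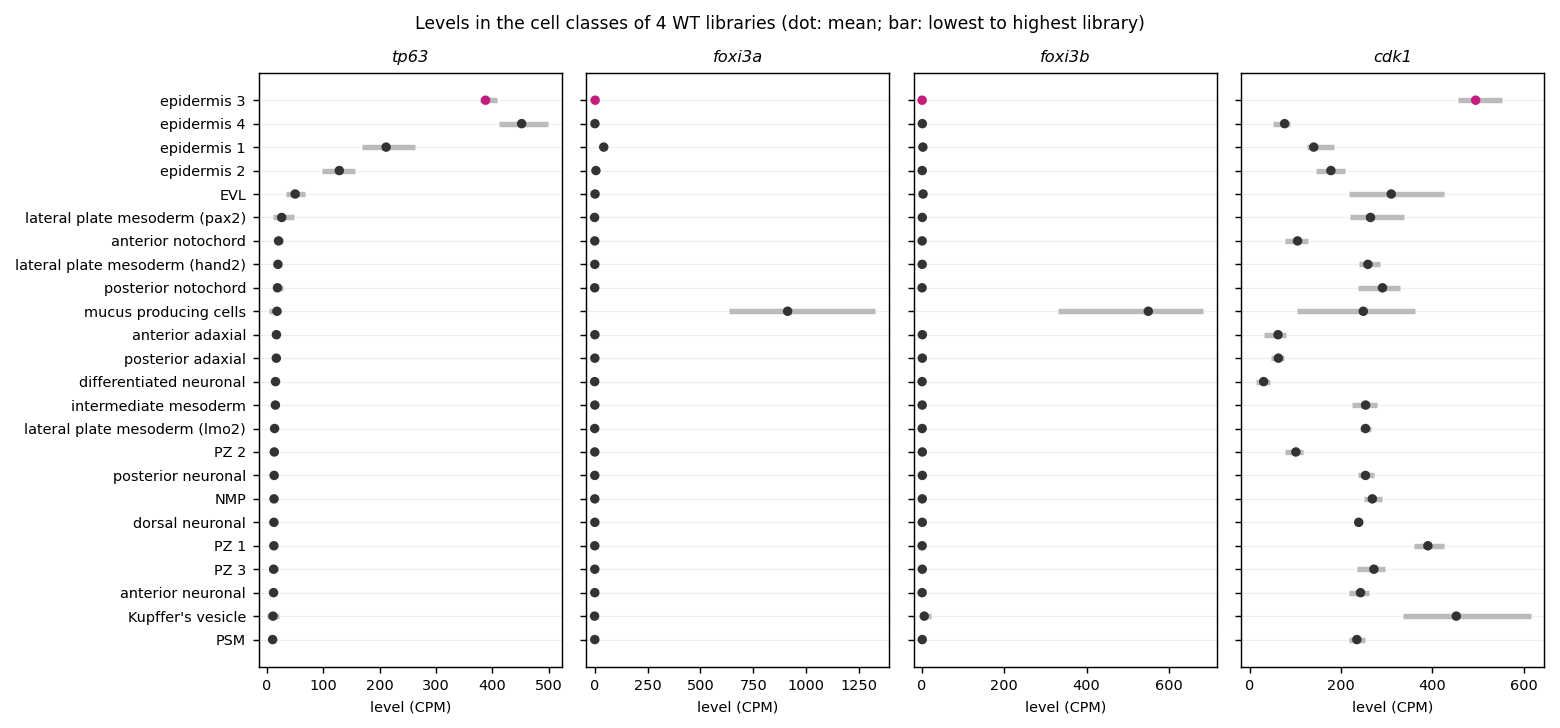
Level in CPM (horizontal, linear) of tp63, foxi3a, foxi3b and cdk1 in each cell class (vertical) of the WT libraries. Dots are means of 4 libraries and bars run from the lowest to the highest library, with epidermis 3 in pink at the top. tp63 was at 388 CPM in epidermis 3, foxi3a and foxi3b were near 0 outside mucus producing cells and, for foxi3a, epidermis 1, and cdk1 was at 495 CPM in epidermis 3. Kupffer's vesicle rests on 7 to 14 cells per library.

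What set epidermis 3 apart from the other epidermis classes in WT was genes of mitosis. Of 17977 genes with a UMI in a WT epidermis class, 42 (0.234%) were at least 2-fold above each of epidermis 4, 1 and 2 with no overlap of libraries, and 6 (0.0334%) were at least 2-fold below. Leaving out 1 WT library gave 51 to 71 higher and 15 to 23 lower genes. The higher count moved by over 1.5 times without DJ1 (71) and without MG1 (64), and the lower count without any of the 4 (16 without DJ1, 15 without DJ2, 16 without MG1 and 23 without MG2). With fewer libraries the condition of no overlap is easier to meet, so rises in these counts are not read as a trait of the library left out. Of the genes counted with all libraries, 17 higher genes and no lower gene reached 50 CPM in the higher class. The classes were made from these same genes, so the differences are a description without a test. cks2, a subunit that binds cyclin-dependent kinases, had 119, 106, 147 and 147 CPM in epidermis 3 of the 4 WT libraries, against 14.7 ± 2.86 CPM in epidermis 4, 32.4 ± 3.88 CPM in epidermis 1 and 27.8 ± 6.52 CPM in epidermis 2. cdk1, the kinase that drives entry into mitosis, had 457, 492, 552 and 478 CPM in epidermis 3 of the 4 WT libraries, against 76.6 ± 17.2 CPM in epidermis 4, 140.5 ± 29 CPM in epidermis 1 and 178 ± 29 CPM in epidermis 2. Its level ranked 1st of the 24 classes, followed by Kupffer's vesicle with 452 ± 123 CPM, whose libraries overlapped those of epidermis 3, and by the class PZ 1 with 390.2 ± 28.4 CPM, whose libraries did not. birc5a, the survivin subunit of the chromosomal passenger complex, had 339.6, 343, 335 and 359 CPM in epidermis 3 of the 4 WT libraries, against 81.6 ± 9.73 CPM in epidermis 4, 129.7 ± 16.6 CPM in epidermis 1 and 104 ± 10.4 CPM in epidermis 2.

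aurkb, the kinase of the same complex, was at 217 ± 20.8 CPM in epidermis 3 and 93.2 ± 16.1 CPM in epidermis 2, the nearest class. The other leading genes by log2 ratio to the nearest class were pif1 (1.72), a DNA helicase, CABZ01058261.1 (1.45), the B-type cyclin gene ccnb3 (1.28), the importin gene kpna2 (1.24), si:ch211-69g19.2 (1.18) and mus81 (1.18), a DNA endonuclease. On the cell cycle list, the 12 genes of G2 and M phase summed to 2046 ± 132 CPM in epidermis 3, 518 ± 53.1 CPM in epidermis 4, 735 ± 122 CPM in epidermis 1 and 1076 ± 99.8 CPM in epidermis 2. The 8 genes of S phase did not stand out. They summed to 1241 ± 144 CPM in epidermis 3, 1110.5 ± 61.5 CPM in epidermis 4, 1359 ± 217 CPM in epidermis 1 and 2036 ± 257 CPM in epidermis 2. The authors' deposited phase call was G2M for 58.5 to 70.1% of WT epidermis 3 cells, 2.70 to 8.39% of epidermis 4, 4.33 to 12.0% of epidermis 1 and 21.3 to 33.1% of epidermis 2. Such calls read the same genes. A UMI of cdk1 was found in 73.5 to 85.7% of epidermis 3 cells, 12.7 to 27.0% of epidermis 4 cells and 43.6 to 52.7% of PSM cells. Thinned to 2000 UMIs, these shares were 52.0 to 60.0% in epidermis 3, 8.91 to 15.3% in epidermis 4 and 27.3 to 29.0% in PSM.

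**Figure D2:**
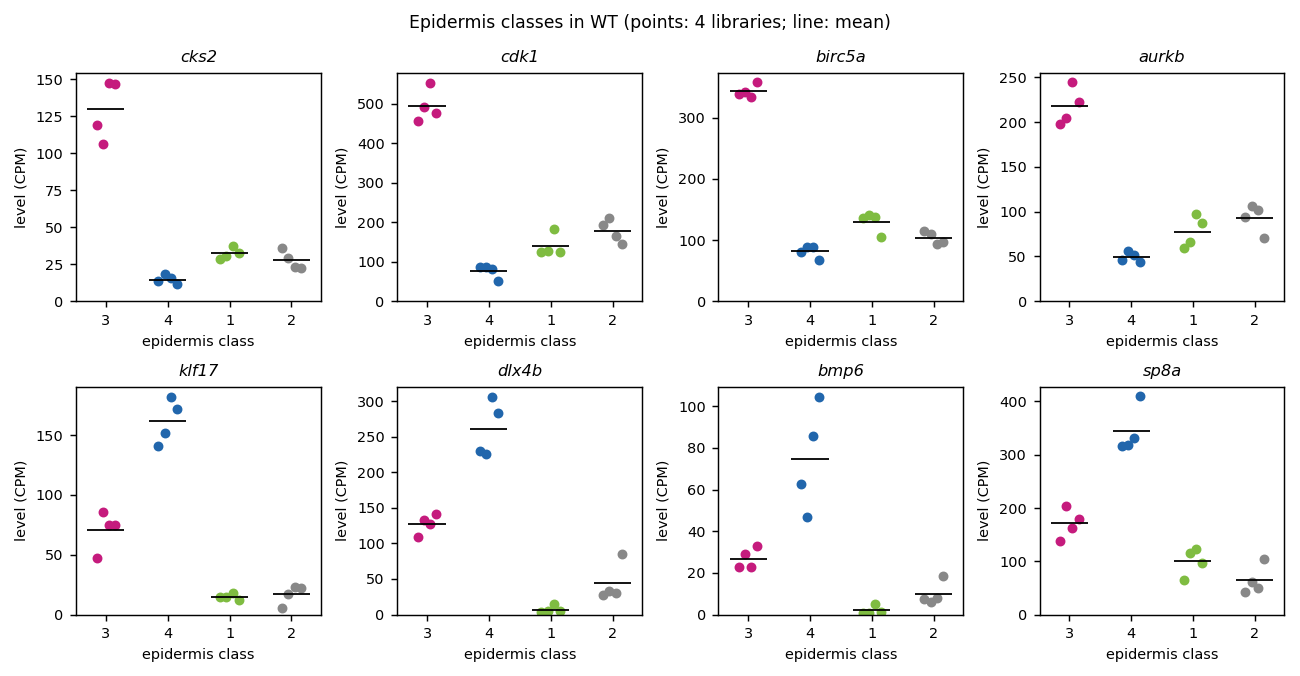
Level in CPM (vertical, from 0) of 8 genes in epidermis 3, 4, 1 and 2 (horizontal) of the 4 WT libraries, with points for libraries and lines for means. In the upper panels cks2, cdk1, birc5a and aurkb were above all other epidermis libraries in epidermis 3. In the lower panels klf17, dlx4b, bmp6 and sp8a were lower in epidermis 3 than in epidermis 4.

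By whole profile, with cell cycle genes not removed, epidermis 3 lay nearest to epidermis 4. Over 6110 genes whose mean reached 10 CPM, Spearman's rho of the mean WT levels was 0.950 with epidermis 4, 0.924 with epidermis 1 and 0.888 with epidermis 2. These values run across genes of the same libraries and carry no test. Of the 34 genes at least 4-fold higher in epidermis 1 than in epidermis 4, all 34 were nearer to epidermis 4 in epidermis 3. Of the 22 genes at least 4-fold higher in epidermis 4 than in epidermis 1, 18 were nearer to epidermis 4. Between epidermis 3 and 4, of 2361 genes at 50 CPM or more in either class, 67 (2.84%) were at least 2-fold higher in epidermis 3 and 12 (0.508%) at least 2-fold lower, again with no overlap. The comparison with epidermis 4 alone, and the genes named from it, were chosen after the values were seen.

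The 12 lower genes included several that encode regulators of development. klf17, a Krüppel-like zinc finger factor, had 47.3, 85.5, 74.8 and 75.1 CPM in epidermis 3, against 141, 152, 182 and 172 CPM in epidermis 4. bmp6, which encodes a BMP ligand, had 22.9, 29, 22.9 and 32.7 CPM in epidermis 3, against 62.8, 46.8, 85.7 and 104 CPM in epidermis 4. The libraries of both classes were apart for both genes. dlx4b, a distal-less homeobox factor, had 128 CPM in epidermis 3 and 261 CPM in epidermis 4, and sp8a, a zinc finger factor of the fin fold, 171 CPM in epidermis 3 and 344 CPM in epidermis 4. cdkn1ca, which encodes an inhibitor of cyclin-dependent kinases, had 255 CPM in epidermis 3 and 515 CPM in epidermis 4. The others were kctd4, cmtm3, rdh8a, prdm1a, dhrs3b, her15.1.1 and crabp2b. Reads of her15.1.1 may be shared with its near-identical copy her15.1, so its level is uncertain.

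The summed level of the basal epidermis list was similar in epidermis 3 and 4, which need not hold for its single genes. The 26 genes of the basal epidermis list summed to 10451 ± 874 CPM in epidermis 3, 10238 ± 730.3 CPM in epidermis 4, 12921 ± 2804 CPM in epidermis 1 and 4030 ± 767 CPM in epidermis 2. The claudin gene cldni, which encodes a tight junction protein, made up 5165 ± 381 CPM of that sum in epidermis 3. The keratin gene krt4 was at 1523 ± 290 CPM, the adhesion gene epcam at 759 ± 76.3 CPM and the homeobox gene dlx3b at 511 ± 77.3 CPM. The 14 genes of the periderm list summed to 971 ± 73.9 CPM in epidermis 3, against 1093 ± 101 CPM in epidermis 4. Transcripts of mesoderm were also found. The 7 mesoderm markers in the matrix summed to 601 ± 40.7 CPM in epidermis 3 and 2935 ± 258 CPM in PSM, led by msgn1 with 315 ± 49.7 CPM in epidermis 3. That level of msgn1 was the lowest of the 24 classes.

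A large part of the genes tested in epidermis 3 differed between each treated group and WT. The labels name no batch, so for DMH1, SU5402 and notum-1 alike a treatment effect and a batch effect cannot be told apart. The notum-1 and WT libraries share name endings, but the labels do not say what these mark. All 3 comparisons used the same 4 WT libraries and are therefore not independent of each other. The labels call the libraries replicates, and p-values measure the spread between these libraries. Of 8835 genes tested, 3346 passed an adjusted p of 0.05 in DMH1 (37.9%), 1603 of them higher (18.1%) and 1743 lower (19.7%). In SU5402, 3555 passed (40.2%), 1790 higher (20.3%) and 1765 lower (20.0%). In notum-1, 2524 passed (28.6%), 1346 higher (15.2%) and 1178 lower (13.3%). More than 2-fold changes were found for 696 higher and 665 lower genes in DMH1, 754 and 773 in SU5402, and 605 and 562 in notum-1. A list is read against these percentages below.

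Scaling matters for notum-1. Fold changes were fitted with TMM scaling factors, whereas CPM are shares of the library's own UMIs. The factors raised the log2 fold changes of notum-1 by a median of 0.46, against 0.03 in DMH1 and -0.05 in SU5402. The 84 ribosomal protein genes took up 33.5 to 36.6% of epidermis 3 UMIs in DMH1, 28.1 to 38.6% in SU5402, 33.5 to 45.6% in notum-1 and 26.2 to 29.7% in WT, and the part of this difference in other results was not tested. Without the factors, 497 genes were higher and 3370 lower in notum-1. All 1178 lower genes were also called lower without them. Of the 1346 higher genes, 497 were also called higher without them. A further 24 of the 1346 had a negative log2 fold change without them, counted by sign alone. In bulk sums such as these, fewer transcripts of a gene in each cell and fewer cells carrying it cannot be told apart.

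Under BMP inhibition by DMH1, genes of the BMP response were lower. Of 24 tested, 10 fell and 2 rose, with a median log2 fold change of -0.32, against 0.01 over all genes tested. msx3, a homeobox gene that BMP induces, had 13.7, 14.9, 15.5 and 16.6 CPM in DMH1 libraries, against 58.8, 76.5, 67 and 50.3 CPM in WT libraries. Its groups did not overlap, and it fell by 2.03 on the log2 scale (SE 0.20; edgeR adjusted p = 2.36e-07). msx2b, a second msx gene, had 5.42, 6.32, 5.16 and 9.12 CPM in DMH1 libraries, against 28.1, 54.1, 44.1 and 30.02 CPM in WT libraries, again with no overlap (log2 fold change -2.56, SE 0.26, adjusted p = 3.48e-07 by edgeR). Genes of the Id proteins, which hold back basic helix-loop-helix factors and are direct BMP targets, included id1, id2a and id3, which also fell. id1 had 354, 288, 275 and 406 CPM in DMH1 libraries, against 979, 1569, 1055 and 857 CPM in WT libraries, with a log2 fold change of -1.72 (SE 0.32, adjusted p = 0.000459 by edgeR). All 4 DMH1 libraries lay below every WT library. For id2a the change was -2.45 (SE 0.37, adjusted p = 6.29e-05 by edgeR) and for id3 -1.35 (SE 0.32, adjusted p = 0.00361 by edgeR). bambib, which encodes a decoy receptor for BMP, averaged 61 ± 11.6 CPM in DMH1 and 104 ± 8.9 CPM in WT (log2 fold change -0.74, SE 0.17, adjusted p = 0.00152 by edgeR). The 2 genes that rose, named after their values were seen, were id2b and tbx2b.

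Basal epidermal genes went mainly the other way in DMH1. Of 22 tested, 10 rose and 2 fell, with a median of 0.34. tp63 had 503, 581, 608 and 588 CPM in DMH1 libraries, against 379, 387, 408 and 379 CPM in WT libraries, all DMH1 libraries above WT, and rose by 0.59 (SE 0.15, adjusted p = 0.00377 by edgeR). The laminin gene lama5, which encodes a protein of the basement membrane, averaged 367 ± 19.9 CPM in DMH1 and 224 ± 26.5 CPM in WT (log2 fold change 0.74, SE 0.16, adjusted p = 0.000871 by edgeR), and the integrin gene itga3b averaged 16.7 ± 0.941 CPM in DMH1 and 4.41 ± 1.19 CPM in WT (log2 fold change 2.001, SE 0.30, adjusted p = 3.06e-05 by edgeR). The keratin gene krt8 rose by 0.81 (SE 0.14, adjusted p = 0.000148 by edgeR). By contrast cldni had 2617, 2445, 2494 and 3090.1 CPM in DMH1 libraries, against 5104, 5629.8, 4705 and 5223 CPM in WT libraries and fell by 0.93 (SE 0.19; edgeR adjusted p = 0.000538). None of the 11 periderm genes tested was called in DMH1 by edgeR, nor in SU5402 or notum-1. Without scaling factors 4 of the 11 fell in notum-1, where 3370 of all 8835 genes tested were called lower. At an unadjusted p under 0.05 there were 0, 0 and 2 periderm genes in DMH1, SU5402 and notum-1. DESeq2 called 0, 0 and 1 (cldne, named after its values were seen). Of the 3 ionocyte factors tested, tfap2c rose by 0.63 (SE 0.15, adjusted p = 0.00215 by edgeR), while tfap2a averaged 318 ± 8.12 CPM in DMH1 and 254 ± 20.9 CPM in WT (log2 fold change 0.36, SE 0.15, adjusted p = 0.0657 by edgeR) and foxi1, a paralog of foxi3a, averaged 4.42 ± 1.36 CPM in DMH1 and 4.35 ± 2.35 CPM in WT (edgeR adjusted p = 0.996). foxi3a and foxi3b were too low to be tested. Of 13 ion transport genes tested 3 rose and none fell, a share near the 18.1% of all genes.

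The FGF and Notch lists gave mixed changes in DMH1. Of 14 FGF response genes, 3 rose and 1 fell, against 18.1% and 19.7% of all genes, so the rises are near the share of all genes. spry4, which encodes a feedback inhibitor of FGF, had 300.4, 278, 309.9 and 255 CPM in DMH1 libraries, against 157, 151, 180.3 and 175 CPM in WT libraries (log2 fold change 0.82, SE 0.22, adjusted p = 0.00584 by edgeR), and the ETS factor gene etv4 averaged 90.0 ± 4.06 CPM in DMH1 and 52.8 ± 6.98 CPM in WT (log2 fold change 0.81, SE 0.17, adjusted p = 0.000762 by edgeR). The gene that fell, spry2, was near the threshold (log2 fold change -0.68, SE 0.26, adjusted p = 0.0496 by edgeR) and was not called when any 1 of the DMH1 or WT libraries was left out, with an adjusted p of 0.0699 without DMH3 to 0.108 without DMH0 or DMH4. Of 20 genes of the Notch pathway 4 rose and 6 fell, against 18.1% and 19.7% of all genes. hey1, a target of Notch, rose by 1.52 (SE 0.23, adjusted p = 3.75e-05 by edgeR) with 59.6, 67.2, 57.9 and 56.3 CPM in DMH1 libraries, against 24.4, 19.6, 20.7 and 21.2 CPM in WT libraries, whereas hey2, a related target, averaged 2.63 ± 0.912 CPM in DMH1 and 14.1 ± 3.19 CPM in WT (log2 fold change -2.35, SE 0.31, adjusted p = 8.3e-06 by edgeR). For both genes the groups were apart. dld, which encodes a Notch ligand of the Delta family, fell by 1.85 (edgeR adjusted p = 9.78e-05), and the receptor gene notch3 rose by 0.93 (SE 0.19, adjusted p = 0.000664 by edgeR).

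Of 11 Wnt response genes 2 rose and 5 fell in DMH1, against 18.1% and 19.7% of all genes. The median log2 fold change of this list was -0.89, against 0.01 over all genes tested. nkd1, which encodes a feedback inhibitor of Wnt, had 9.69, 6.6, 10.6 and 10.5 CPM in DMH1 libraries, against 22.4, 28.6, 30.7 and 30.9 CPM in WT libraries, with no overlap, and fell by 1.54 (SE 0.23; edgeR adjusted p = 3.06e-05). sp5l, a zinc finger gene induced by Wnt, rose by 0.51 (SE 0.16, adjusted p = 0.0141 by edgeR). tbxta, a mesoderm gene that is on this list and on the mesoderm list, fell by 2.17 (edgeR adjusted p = 0.00131), and did not pass when only cells with at least 1500 genes and at most 3% mitochondrial UMIs were used, here called a common limit on cells (0.299). The mesoderm list as a whole was lower. Its 7 genes summed to 177 to 279 CPM in epidermis 3 in DMH1 and 565 to 655 CPM in WT, which was 5.23 to 11.4% (DMH1) and 18.8 to 19.9% (WT) of the level in all cells of the same library. Of the 7 genes 4 fell, and the part of mesoderm RNA in the result of tbxta was not tested. Of 8 fin fold genes, dlx5a, a homeobox gene of the fin fold, was the only one called in DMH1, and it averaged 40.9 ± 19.6 CPM in DMH1 and 127 ± 19.1 CPM in WT (log2 fold change -1.60, SE 0.46, adjusted p = 0.0137 by edgeR).

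The largest changes in DMH1 were in genes of glycolysis and of the heat shock response. eno1a, which encodes the glycolytic enzyme enolase, had 46.7, 44.8, 61.9 and 119.8 CPM in DMH1 libraries, against 0.52, 1.57, 2.23 and 2.65 CPM in WT libraries, a log2 fold change of 5.37 (SE 0.41, adjusted p = 2.29e-08 by edgeR). ldha, the gene of lactate dehydrogenase A, averaged 94.1 ± 36 CPM in DMH1 and 4.8 ± 2.4 CPM in WT (log2 fold change 4.21, SE 0.30, adjusted p = 3.83e-09 by edgeR). egln3 and egln2 encode prolyl hydroxylases, the oxygen sensors that mark hypoxia-inducible factors for decay, and rose by 4.03 and 4.49 (edgeR adjusted p = 8.13e-06 and 3.83e-09). si:dkey-85k7.7 rose by 4.34 (edgeR adjusted p = 3.06e-05). In all other cells of the same libraries eno1a also rose, by 4.45 (edgeR adjusted p = 1.87e-07). On the oxygen and glycolysis list 8 of 14 genes rose and 2 fell, a median of 1.28.

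hsp70.1, which encodes an inducible Hsp70 chaperone, had 3.14, 5.17, 0.815 and 3.49 CPM in DMH1 libraries, against 697, 424, 713 and 872 CPM in WT libraries, a log2 fold change of -7.70 (SE 0.69, adjusted p = 4.6e-06 by edgeR). hsp70l, hsp70.2 and hsp70.3 fell by 6.83, 6.11 and 5.92 (edgeR adjusted p = 2.42e-05, 2.15e-05 and 0.000125), and CABZ01080568.1 by 4.39 (edgeR adjusted p = 4.9e-08). The hsp70 genes are near-identical, so the 4 copies are best read as a sum, which was 20.3 ± 9.68 CPM in DMH1 and 2098 ± 332 CPM in WT. Of 15 heat shock genes tested 10 fell and 2 rose. In all other cells of the same libraries hsp70.1 also fell, by 6.22 (edgeR adjusted p = 5.73e-07). Genes of the damage response that fell included cdkn1a, the gene of the cell cycle inhibitor p21, with 1.38 ± 0.865 CPM in DMH1 and 6.12 ± 2.6 CPM in WT (log2 fold change -2.13, SE 0.55, adjusted p = 0.00448 by edgeR).

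The genes of the cell cycle list did not move as one. Of those named in this paragraph, only cdk1 was among the genes that set the class apart in WT. Of 19 cell cycle genes 4 rose and 3 fell in DMH1, shares near those of all genes. cdk1 had 232, 231, 220.0 and 238 CPM in DMH1 libraries, against 457, 492, 552 and 478 CPM in WT libraries and fell by 1.07 (SE 0.16; edgeR adjusted p = 2.05e-05). The groups did not overlap. cenpf, which encodes a kinetochore protein of mitosis, had 146, 134, 114 and 112 CPM in DMH1 libraries, against 38, 31.4, 29 and 28.3 CPM in WT libraries and rose by 2.02 (SE 0.22, adjusted p = 1.33e-06 by edgeR). mki67, the gene of the proliferation marker Ki-67, rose by 0.84 and the cyclin gene ccna2 fell by 0.72 (edgeR adjusted p = 0.000495 and 0.000427). The deposited phase was G2M for 59.6 to 62.4% of epidermis 3 cells in DMH1 and 58.5 to 70.1% in WT.

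The other called members of the lists that the naming rule gave in DMH1 are set out here with their log2 fold change and edgeR adjusted p. Of adhesion and matrix genes, these were itgb1b (1.93, adjusted p = 0.00155) and lamc1 (1.55, adjusted p = 0.00187). Of the Notch list they were nrarpa (-0.95, adjusted p = 0.000976) and notch1a (0.87, adjusted p = 0.00182), and of ion transport stc1l (1.98, adjusted p = 0.00124), atp1b1a (0.50, adjusted p = 0.0079) and atp6v0ca (0.57, adjusted p = 0.0112), where stc1l encodes a stanniocalcin, a hormone that lowers calcium uptake in fish. FGF and Wnt targets were fosl1a (1.66, adjusted p = 0.0185), sp5a (-1.62, adjusted p = 0.000258), dkk1b (-4.17, adjusted p = 0.0205) and axin2 (0.58, adjusted p = 0.032). Genes of oxygen, heat shock and the damage response were aldocb (3.64, adjusted p = 1.04e-05), pgk1 (1.95, adjusted p = 4.9e-05), higd1a (-1.39, adjusted p = 9.83e-06), dnajb1b (-2.23, adjusted p = 1.99e-06), hspe1 (-1.20, adjusted p = 2.81e-06), hspa4a (-1.64, adjusted p = 1.24e-05), phlda3 (-1.56, adjusted p = 0.00145) and mdm2 (-0.61, adjusted p = 0.0142), and those of the cell cycle mcm3 (-1.18, adjusted p = 0.00122) and top2a (0.66, adjusted p = 0.00224). Genes of other tissues fell: the neural genes sox19a (-1.99, adjusted p = 0.00484), elavl3 (-1.75, adjusted p = 0.0165) and sox2 (-1.16, adjusted p = 0.0188), the mesoderm genes tbx16 (-1.20, adjusted p = 0.00314), myod1 (-1.59, adjusted p = 0.00908) and myf5 (-1.22, adjusted p = 0.0286), the notochord genes noto (-1.93, adjusted p = 0.00325) and col2a1a (-1.77, adjusted p = 0.018) and the lateral plate genes tal1 (-2.17, adjusted p = 0.00148) and lmo2 (-1.68, adjusted p = 0.0245).

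Some of these calls in DMH1 did not hold when 1 library was left out. By edgeR, the calls were lost for fosl1a without DJ1 (adjusted p = 0.0546), dkk1b without DMH4 (adjusted p = 0.055), mdm2 without DMH3 (adjusted p = 0.0595) or DJ1 (adjusted p = 0.105) and elavl3 without DMH4 (adjusted p = 0.0508) or MG1 (adjusted p = 0.0682). They were also lost for axin2 without any 1 of DMH0, DMH2, DMH4, DJ1, MG1 and MG2 (adjusted p = 0.0525 to 0.1). The same held for sox2 without any 1 of DMH4, MG1 and MG2 (adjusted p = 0.0558 to 0.085) and col2a1a without any 1 of DMH0, DMH3 and MG2 (adjusted p = 0.0519 to 0.0557). Further losses were myf5 without any 1 of DMH3, DMH4, DJ1, MG1 and MG2 (adjusted p = 0.0547 to 0.079) and lmo2 without any 1 of DMH0, DMH3, DMH4 and DJ1 (adjusted p = 0.0622 to 0.075). Other settings of the test also ended calls in DMH1, here with their adjusted p. With the common limit on cells they were atp1b1a (0.239), tbxta (0.299), axin2 (0.103), mdm2 (0.172), mcm3 (0.196), sox19a (0.0522), sox2 (0.423), tbx16 (0.159) and myf5 (0.105). With libraries thinned to the smallest they were atp1b1a (0.087), fosl1a (0.0501), spry2 (0.0914), axin2 (0.186), mdm2 (0.259) and sox2 (0.211). With all genes of at least 1 UMI tested they were mdm2 (0.059), myf5 (0.0816) and lmo2 (0.0586), with cells called G2M alone spry2 (0.108) and mdm2 (0.121), and in DESeq2 spry2 (0.0579).

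**Figure D3:**
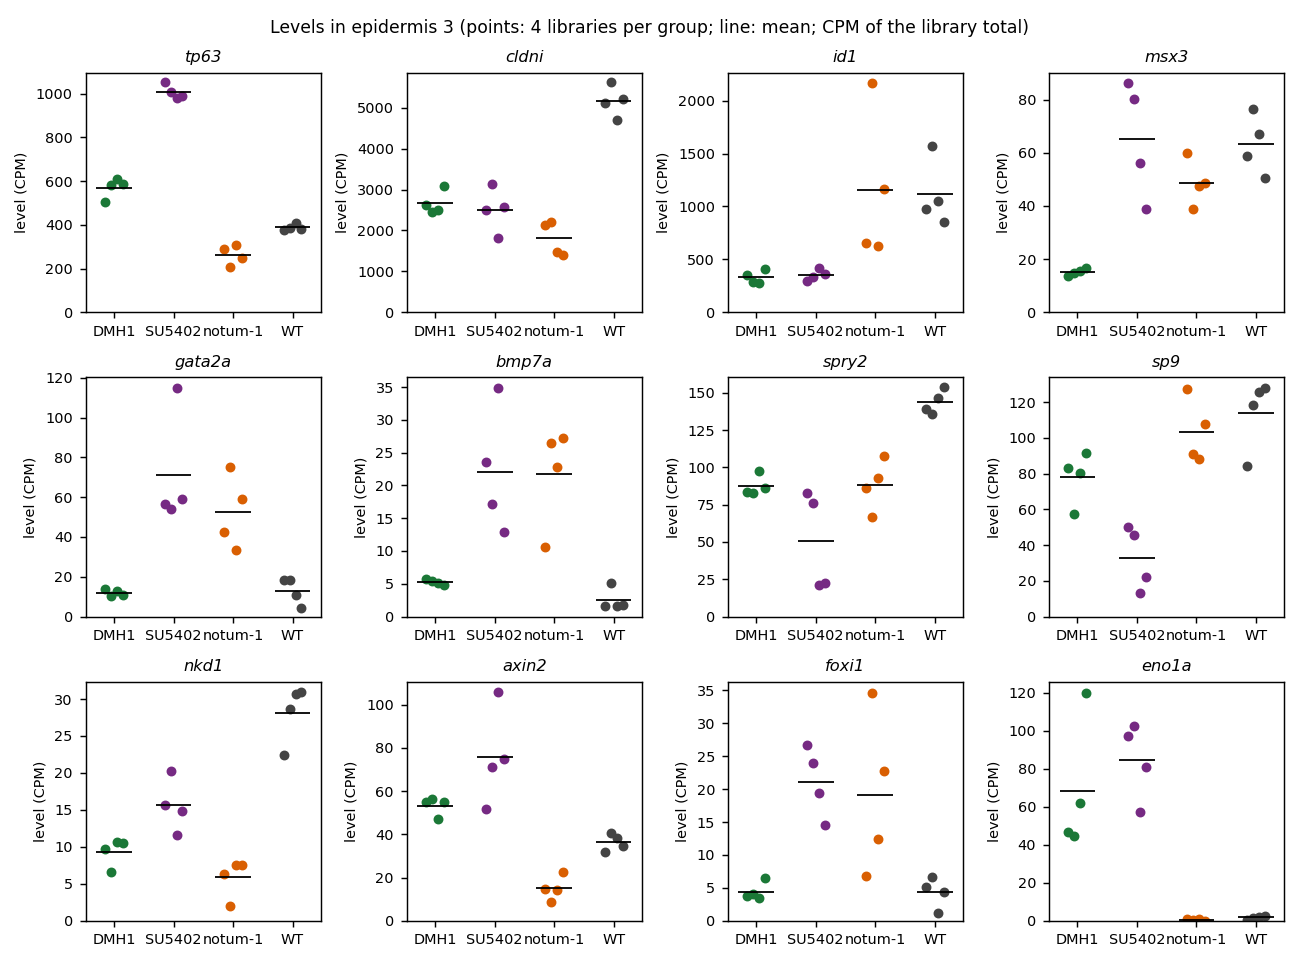
Level in CPM (vertical, from 0) of 12 genes in epidermis 3 of DMH1, SU5402, notum-1 and WT (horizontal), with points for the 4 libraries of a group and lines for their mean. tp63 was highest in SU5402, cldni in all treated libraries was below its WT values, id1 and msx3 were low in DMH1, spry2 split SU5402 into 2 higher and 2 lower libraries, and gata2a and bmp7a were high in SU5402 and notum-1. CPM are not TMM-scaled.

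Under FGF inhibition by SU5402, genes of the FGF response were lower. Of 14 tested, 7 fell and 3 rose, with a median log2 fold change of -0.47, against 0.05 over all genes. spry2, the sprouty gene whose product dampens FGF signalling, had 83.1, 76.3, 21.2 and 22.2 CPM in SU5402 libraries, against 139, 136, 146 and 154 CPM in WT libraries. Every SU5402 library lay below WT, and the 4 formed 2 pairs: SU1 and SU2 were at 83.1 and 76.3 CPM and SU3 and SU4 at 21.2 and 22.2 CPM. The log2 fold change was -1.75 (SE 0.29, adjusted p = 0.000129 by edgeR). The same pairs showed in spry4, with 113, 124, 42.7 and 44.7 CPM in SU5402 libraries, against 157, 151, 180.3 and 175 CPM in WT libraries (log2 fold change -1.20, SE 0.23, adjusted p = 0.000407 by edgeR). In dusp6, which encodes a phosphatase that acts on the ERK kinase, SU1 reached into the WT range, with 83.1, 66.6, 19.1 and 20.2 CPM in SU5402 libraries, against 92, 78, 115 and 83.9 CPM in WT libraries (log2 fold change -1.23, SE 0.36, adjusted p = 0.0136 by edgeR), and with libraries thinned to the smallest it did not pass (0.078). The ETS factor gene etv5b averaged 96.2 ± 33.3 CPM in SU5402 and 171 ± 10.1 CPM in WT (log2 fold change -0.95, SE 0.17, adjusted p = 0.000131 by edgeR), and the immediate early gene ier2a averaged 23.6 ± 4.45 CPM in SU5402 and 95.1 ± 13.1 CPM in WT (log2 fold change -2.05, SE 0.23, adjusted p = 1.19e-06 by edgeR). The same pairs showed outside the FGF list. FP236812.1 had 3.14, 5.24, 60.4 and 67.3 CPM in SU1 to SU4, against 37.4 to 51.8 CPM in WT. zgc:173587 had 3.14, 6.73, 35.8 and 29.8 CPM, against 56.4 to 60.8 CPM in WT. The TMM scaling factors of SU1 to SU4 were 1.22, 1.23, 1.04 and 1.03. tp63 did not split so, at 1051, 1008, 978 and 989 CPM. The sources used here do not say whether the pairs differ in dose, time or batch. The 3 genes that rose, named after their values were seen, were etv5a, egr1 and fosl1a.

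Of 8 fin fold genes 2 fell and 2 rose in SU5402, near the shares of all genes (20.0% and 20.3%). sp9, a zinc finger gene of the fin fold rim, had 50.2, 45.6, 13.3 and 22.2 CPM in SU5402 libraries, against 84.2, 118, 126 and 128 CPM in WT libraries, with the groups apart and the same 2 pairs, and fell by 2.03 (SE 0.26; edgeR adjusted p = 7.43e-06). The related sp8b averaged 27.8 ± 12.6 CPM in SU5402 and 82 ± 21 CPM in WT (log2 fold change -1.75, SE 0.23, adjusted p = 5.3e-06 by edgeR). fras1 and hmcn1, which encode proteins that hold the fin fold epidermis to its matrix, rose by 0.80 and 0.81 (edgeR adjusted p = 0.00308 and 0.00286), and neither passed under a common limit on cells (0.0984 and 0.136).

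BMP genes changed in both directions in SU5402: of 24 tested 7 rose and 5 fell. These counts are near the shares of all genes, 20.3% higher and 20.0% lower, and are not read as a result for the list. szl, which encodes Sizzled, a secreted feedback inhibitor that is made where BMP is high, had 318, 288, 389 and 218 CPM in SU5402 libraries, against 17.2, 9.41, 8.37 and 2.65 CPM in WT libraries, the 2nd largest rise by the naming rule (log2 fold change 4.86, SE 0.54, adjusted p = 1.4e-05 by edgeR). bmp7a, which encodes a BMP ligand, had 23.5, 17.2, 34.8 and 12.9 CPM in SU5402 libraries, against 1.56, 5.1, 1.67 and 1.77 CPM in WT libraries (log2 fold change 2.95, SE 0.42, adjusted p = 1.38e-05 by edgeR). The GATA factor gene gata2a had 56.5, 53.9, 115 and 59.3 CPM in SU5402 libraries, against 18.2, 18.4, 10.6 and 4.42 CPM in WT libraries, with all SU5402 libraries above WT (log2 fold change 2.37, SE 0.34, adjusted p = 3.69e-05 by edgeR). gata3 and the T-box gene tbx2b rose by 2.17 and 2.11 (edgeR adjusted p = 0.000342 and 5.16e-05). id1, by contrast, had 298, 332, 417 and 363 CPM in SU5402 libraries, against 979, 1569, 1055 and 857 CPM in WT libraries and fell by 1.70 (edgeR adjusted p = 0.000446). In DMH1, szl averaged 15.1 CPM (log2 fold change 0.62, SE 0.57, adjusted p = 0.419 by edgeR), a value given outside the rule for naming genes.

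tp63 was higher in SU5402, and of the basal epidermal genes more rose than fell. tp63 had 1051, 1008, 978 and 989 CPM in SU5402 libraries, against 379, 387, 408 and 379 CPM in WT libraries, with every SU5402 library above 970 CPM and no WT library above 408 CPM, and rose by 1.31 (SE 0.15, adjusted p = 1.44e-06 by edgeR). A UMI of tp63 was found in 81.2 to 85.03% of epidermis 3 cells in SU5402 and 48.6 to 52.5% in WT at 2000 UMIs per cell. Of 22 basal epidermal genes 10 rose and 4 fell, against 20.3% and 20.0% of all genes. The median log2 fold change of this list was 0.51, against 0.05 over all genes tested. Those that fell were cldni and, named after their values were seen, epcam, cldnb and dlx3b. krt8 rose by 0.998 (SE 0.14, adjusted p = 1.44e-05 by edgeR) and the integrin gene itga6b by 0.91 (SE 0.18, adjusted p = 0.000355 by edgeR). cldni had 2509.5, 3145, 1814 and 2577 CPM in SU5402 libraries, against 5104, 5629.8, 4705 and 5223 CPM in WT libraries and fell by 1.12 (SE 0.19; edgeR adjusted p = 7.25e-05). Of the 10 ionocyte factors only 3 were tested, and all 3 were higher, of which tfap2a and tfap2c are also general epidermal factors. foxi1 had 26.7, 23.9, 19.5 and 14.5 CPM in SU5402 libraries, against 5.2, 6.67, 1.12 and 4.42 CPM in WT libraries, with no overlap (log2 fold change 2.09, SE 0.45, adjusted p = 0.00103 by edgeR), tfap2a averaged 425 ± 45 CPM in SU5402 and 254 ± 20.9 CPM in WT (log2 fold change 0.67, SE 0.15, adjusted p = 0.00129 by edgeR) and tfap2c averaged 760.3 ± 55.3 CPM in SU5402 and 435 ± 48.9 CPM in WT (log2 fold change 0.74, SE 0.15, adjusted p = 0.000431 by edgeR). With a common limit on cells foxi1 did not pass (edgeR adjusted p = 0.119). Of 13 ion transport genes 4 rose and none fell, against 20.3% and 20.0% of all genes. Of the 4, 3 encode subunits of the proton pump, such as atp6v0ca (log2 fold change 0.76, SE 0.17, adjusted p = 0.00132 by edgeR) and atp6v1ab (log2 fold change 0.84, SE 0.20, adjusted p = 0.002 by edgeR). With the common limit atp6v0ca did not pass (edgeR adjusted p = 0.0598).

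Of 11 Wnt response genes 2 rose and 2 fell in SU5402, near the share of all genes. cdx4, a homeobox gene of the tail, had 1568, 1683, 811 and 1154 CPM in SU5402 libraries, against 3191, 3309, 2901 and 2899 CPM in WT libraries, with all SU5402 libraries below WT (log2 fold change -1.33, SE 0.19, adjusted p = 1.63e-05 by edgeR). axin2, a feedback inhibitor and target of Wnt, had 51.8, 71.1, 106 and 75 CPM in SU5402 libraries, against 31.7, 40.4, 38.5 and 34.4 CPM in WT libraries (log2 fold change 1.07, SE 0.21, adjusted p = 0.000437 by edgeR). Of 20 Notch genes 3 rose and 1 fell, again below the share of all genes that was called. hey2 fell and hey1 rose (-1.93 and 1.06; edgeR adjusted p = 0.000125 and 0.00157).

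Glycolytic and heat shock genes led the changes in SU5402. eno1a had 97.2, 102, 57 and 81 CPM in SU5402 libraries, against 0.52, 1.57, 2.23 and 2.65 CPM in WT libraries (log2 fold change 5.55, SE 0.41, adjusted p = 1.24e-08 by edgeR), and ldha, egln2 and si:dkey-85k7.7 rose by 4.16, 4.52 and 4.82 (edgeR adjusted p = 3.34e-09, 3.34e-09 and 1.2e-05). On the oxygen and glycolysis list 9 of 14 genes rose and 2 fell. The 4 hsp70 copies summed to 32.4 ± 14.7 CPM in SU5402 and 2098 ± 332 CPM in WT, and of 15 heat shock genes 8 fell and 1 rose. The 4 copies were all among the 5 largest falls, with log2 fold changes of -6.87, -6.73, -5.73 and -5.72 for hsp70.2, hsp70l, hsp70.1 and hsp70.3. The remaining one was dhrs3a, which encodes a retinaldehyde reductase of retinoid metabolism, with 1.57, 0, 0 and 0.403 CPM in SU5402 libraries, against 29.1, 27.4, 27.9 and 29.1 CPM in WT libraries (log2 fold change -6.43, SE 0.47, adjusted p = 3.34e-09 by edgeR). In WT the mean of dhrs3a was highest in epidermis 3 of the 24 classes, at 28.4 ± 0.859 CPM. It was not among the 42 genes at least 2-fold above each other epidermis class without overlap.

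Of 19 cell cycle genes 5 rose and 6 fell in SU5402, against 20.3% and 20.0% of all genes. cdk1 had 312, 364, 173 and 273 CPM in SU5402 libraries, against 457, 492, 552 and 478 CPM in WT libraries (log2 fold change -0.91, SE 0.16, adjusted p = 9.59e-05 by edgeR), and cenpf averaged 119.6 ± 37.3 CPM in SU5402 and 31.7 ± 4.41 CPM in WT (log2 fold change 1.89, SE 0.23, adjusted p = 1.94e-06 by edgeR). The deposited phase was G2M for 60.1 to 67.3% of epidermis 3 cells in SU5402. None of the 7 neural, 7 mesoderm, 2 notochord or 4 lateral plate genes tested was called in SU5402 by edgeR or DESeq2, with 1 notochord gene and 0 of the others at an unadjusted p under 0.05, and the summed mesoderm markers ranged from 131 to 648 CPM, a range that held part of the WT range. Leaving out SU1, the shallowest library, gave 1709 higher and 1726 lower genes.

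The remaining called members of the lists in SU5402 were, with log2 fold change and edgeR adjusted p, the Notch genes notch1a (0.99, adjusted p = 0.000575) and mib1 (0.59, adjusted p = 0.00756), the ion transport genes atp6v1ba (0.71, adjusted p = 0.00624) and atp1b1a (0.49, adjusted p = 0.00904) and the FGF feedback inhibitor il17rd (-0.93, adjusted p = 0.000366). The Wnt genes were lef1 (0.69, adjusted p = 0.00251) and nkd1 (-0.93, adjusted p = 0.00413). Oxygen and heat shock genes were aldocb (4.01, adjusted p = 2.96e-06), egln3 (3.91, adjusted p = 8.64e-06), ndrg1a (2.76, adjusted p = 1.7e-06), higd1a (-1.54, adjusted p = 4.84e-06), hspe1 (-1.18, adjusted p = 2.17e-06), dnajb1b (-1.96, adjusted p = 5.68e-06) and hspa4a (-1.64, adjusted p = 2.55e-05). Those of the damage response and the cell cycle were cdkn1a (-1.87, adjusted p = 0.0193), mdm2 (-0.59, adjusted p = 0.0234), sesn1 (0.72, adjusted p = 0.0309), top2a (0.78, adjusted p = 0.000536), tpx2 (0.69, adjusted p = 0.00107), mki67 (0.74, adjusted p = 0.00135) and mcm3 (-0.94, adjusted p = 0.00707). By edgeR, the calls were lost for mib1 without SU3 (adjusted p = 0.0528), atp6v1ba without SU3 (adjusted p = 0.0517), cdkn1a without MG1 (adjusted p = 0.0605) and mdm2 without DJ1 (adjusted p = 0.118). The call was also lost for sesn1 without any 1 of SU3, DJ2, MG1 and MG2 (adjusted p = 0.0631 to 0.164). With the common limit on cells the calls lost, with their adjusted p, were foxi1 (0.119), atp6v0ca (0.0598), atp6v1ba (0.149), atp1b1a (0.0644), hmcn1 (0.136), fras1 (0.0984), lef1 (0.665), mdm2 (0.0751) and mcm3 (0.221). With libraries thinned they were atp1b1a (0.216), dusp6 (0.078), nkd1 (0.0635), mdm2 (0.141) and mcm3 (0.052). With all genes of at least 1 UMI tested they were mdm2 (0.0524) and sesn1 (0.0678), and in DESeq2 sesn1 (0.0628).

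In notum-1, the gene of the treatment checked the labels: notum1a had 217, 965, 364 and 836 CPM in notum-1 libraries, against 0.52, 0, 0.558 and 0 CPM in WT libraries, with a log2 fold change of 11.23 (SE 0.68, adjusted p = 1.11e-07 by edgeR). WNT_DJ2 and WNT_MG2, the 2nd and 4th of these libraries, had the most. Genes of the Wnt response were lower. Of 11 tested 6 fell and none rose, with a median log2 fold change of -1.03. Without scaling factors 9 fell, where 3370 of all 8835 genes were called lower. nkd1 had 6.37, 2.04, 7.59 and 7.58 CPM in notum-1 libraries, against 22.4, 28.6, 30.7 and 30.9 CPM in WT libraries, with the groups apart (log2 fold change -1.84, SE 0.28, adjusted p = 7.31e-05 by edgeR). sp5l had 30.6, 58.6, 56.4 and 59.1 CPM in notum-1 libraries, against 132, 129.8, 158 and 143 CPM in WT libraries (log2 fold change -1.03, SE 0.17, adjusted p = 0.000164 by edgeR). axin2 averaged 15.1 ± 5.79 CPM in notum-1 and 36.3 ± 3.92 CPM in WT and fell by 0.92 (SE 0.25; edgeR adjusted p = 0.00907). msgn1 and tbxta were also among the 6 and are mesoderm genes as well. msgn1 had 13.2, 11.2, 75.3 and 51.5 CPM in notum-1 libraries, against 294, 356, 357 and 255 CPM in WT libraries (log2 fold change -2.68, SE 0.59, adjusted p = 0.00471 by edgeR), and did not pass under the common limit on cells (0.057). The mesoderm markers summed to 31.6 to 164 CPM in epidermis 3 in notum-1 and 565 to 655 CPM in WT. That was 2.34 to 11.01% (notum-1) and 18.8 to 19.9% (WT) of the level in all cells, and 6 of 7 fell. The part of mesoderm RNA in the results of msgn1, tbxta and the other Wnt and Notch genes was not tested.

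**Figure D4:**
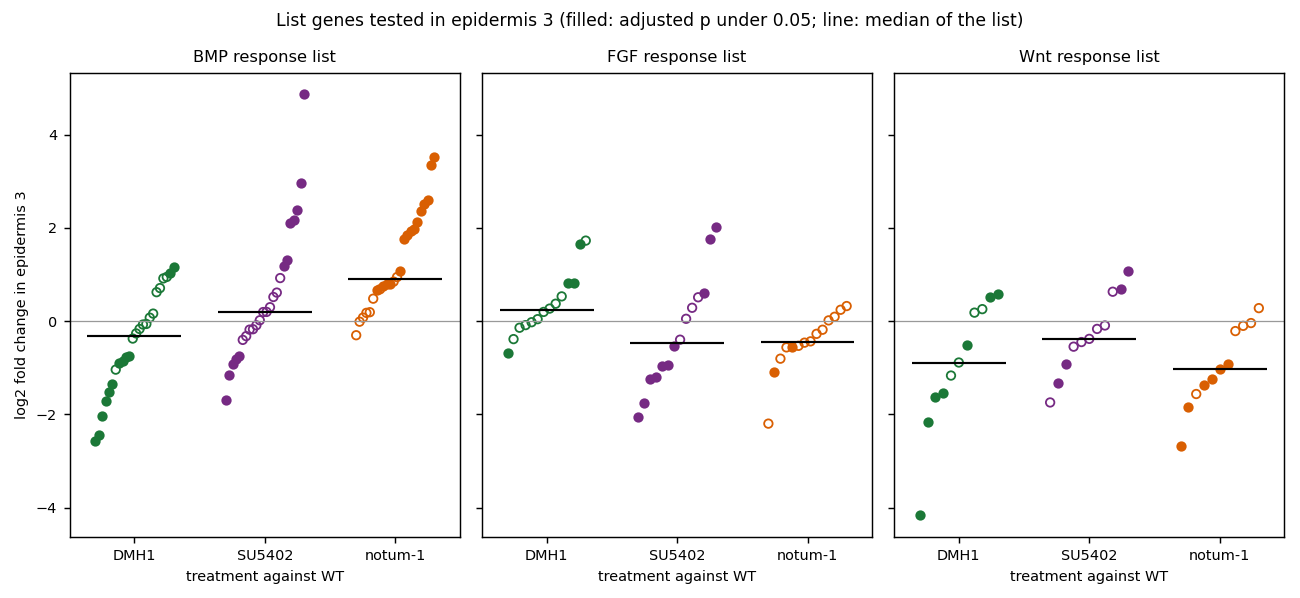
Log2 fold change in epidermis 3 against WT (vertical) of each tested gene of the BMP, FGF and Wnt response lists, in DMH1, SU5402 and notum-1 (horizontal). Filled points passed an adjusted p of 0.05 and lines are list medians. Of 24 BMP genes 10 fell in DMH1 and 15 rose in notum-1, of 14 FGF genes 7 fell in SU5402, and of 11 Wnt genes 6 fell in notum-1. Without scaling factors 11 of the 15 BMP genes were still called higher in notum-1.

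BMP response genes rose in notum-1: 15 of 24, against 15.2% of all genes, and none fell, with a median of 0.89. Without scaling factors 11 of the 15 were called higher and none lower, with a median of 0.43. tbx2b had 36.1, 41.8, 30.9 and 19.7 CPM in notum-1 libraries, against 3.12, 5.88, 3.35 and 2.65 CPM in WT libraries, all notum-1 libraries above WT (log2 fold change 3.51, SE 0.32, adjusted p = 3.24e-07 by edgeR). bmp7a had 10.6, 26.5, 22.8 and 27.3 CPM in notum-1 libraries, against 1.56, 5.1, 1.67 and 1.77 CPM in WT libraries (log2 fold change 3.34, SE 0.42, adjusted p = 1.14e-05 by edgeR). bambia, the gene of a decoy receptor for BMP, had 147, 604, 163 and 300.0 CPM in notum-1 libraries, against 70.2, 84.3, 73.7 and 39.7 CPM in WT libraries (log2 fold change 2.59, SE 0.41, adjusted p = 0.000477 by edgeR). The 2 libraries with the most notum1a were the highest in bambia too, while tbx2b was lowest in WNT_MG2 at 19.7 CPM. A relation of any gene to the level of notum1a was not tested. smad6b, which encodes an inhibitory Smad, averaged 7.42 ± 2.69 CPM in notum-1 and 2.68 ± 0.589 CPM in WT (log2 fold change 1.85, SE 0.38, adjusted p = 0.00118 by edgeR). The GATA factor gene gata2a had 42.5, 74.9, 33.6 and 59.1 CPM in notum-1 libraries, against 18.2, 18.4, 10.6 and 4.42 CPM in WT libraries (log2 fold change 2.36, SE 0.35, adjusted p = 0.000122 by edgeR). gata3 averaged 41.8 ± 18.4 CPM in notum-1 and 13.5 ± 6.49 CPM in WT and rose by 1.94 (SE 0.40, adjusted p = 0.00207 by edgeR), although 1 notum-1 library lay within the WT range.

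These BMP list genes were low in epidermis 3 and high in epidermis 1 of WT: tbx2b was at 3.75 ± 1.45 CPM in epidermis 3 and 39.6 ± 2.45 CPM in epidermis 1, and gata2a at 12.9 ± 6.73 CPM in epidermis 3 and 101 ± 42.7 CPM in epidermis 1. The 34 genes at least 4-fold higher in epidermis 1 than in epidermis 4 of WT were therefore set apart as a list, after the values were seen and without a test. This list shares genes with the BMP list, among them gata2a, gata3, szl and bambia, which rose in notum-1. Its counts therefore partly repeat those of the BMP list, and the WT libraries that gave the list were also the reference. Of 31 tested in epidermis 3, 11 rose and 2 fell in notum-1, with a median log2 fold change of 0.74, against 15.2% and 13.3% of all genes. Without scaling factors 7 rose and 4 fell, against 497 and 3370 of all 8835 genes. In SU5402 9 rose and 7 fell, with a median of 0.05, against 20.3% and 20.0% of all genes. In DMH1 1 rose and 9 fell, with a median of -0.47, against 18.1% and 19.7%.

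tp63 itself was not called in notum-1. It averaged 264 ± 44.7 CPM in notum-1 and 388 ± 13.9 CPM in WT, and its log2 fold change was -0.10 (SE 0.15, adjusted p = 0.646 by edgeR) after scaling. In CPM, every notum-1 library (209 to 308) lay below every WT library (379 to 408). In cells thinned to equal UMIs, a UMI of tp63 was found in 32.8 to 47.6% in notum-1 and 48.6 to 52.5% in WT. Neither the CPM nor these shares use the scaling factors. Of 22 basal epidermal genes 3 rose and 6 fell, against 15.2% and 13.3% of all genes. cldni had 2134, 2215, 1481 and 1409 CPM in notum-1 libraries, against 5104, 5629.8, 4705 and 5223 CPM in WT libraries and fell by 1.06 (SE 0.19; edgeR adjusted p = 0.00028). The claudin genes cldnb and cldn7b fell by 1.26 and 0.52 (edgeR adjusted p = 9.4e-05 and 0.00948), and the keratin gene krt5 averaged 95.2 ± 20.4 CPM in notum-1 and 299 ± 78 CPM in WT (log2 fold change -1.17, SE 0.32, adjusted p = 0.0115 by edgeR). foxi1 had 6.8, 34.7, 12.5 and 22.7 CPM in notum-1 libraries, against 5.2, 6.67, 1.12 and 4.42 CPM in WT libraries (log2 fold change 2.47, SE 0.45, adjusted p = 0.000507 by edgeR), again highest in WNT_DJ2 and WNT_MG2. tfap2c averaged 217 ± 35.6 CPM in notum-1 and 435 ± 48.9 CPM in WT (log2 fold change -0.57, SE 0.15, adjusted p = 0.0071 by edgeR). tfap2a averaged 133 ± 30.5 CPM in notum-1 and 254 ± 20.9 CPM in WT (log2 fold change -0.50, SE 0.16, adjusted p = 0.0184 by edgeR), and was not called without WNT_DJ2 (adjusted p = 0.062) or without the WT library DJ1 (0.0559). Of 13 ion transport genes 2 rose and 1 fell, against 15.2% and 13.3% of all genes. Of 8 fin fold genes 2 fell, against 13.3% of all genes, and none rose. Those that fell included hmcn1 (log2 fold change -0.96, SE 0.23, adjusted p = 0.00396 by edgeR).

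Of 14 FGF response genes 2 fell in notum-1, near the 13.3% of all genes, and none rose. The median log2 fold change of the list was -0.45, against -0.03 over all genes tested. Without scaling factors 8 of these genes fell, where 3370 of all 8835 genes were called lower. ier2a had 49.3, 17.8, 31.4 and 30.3 CPM in notum-1 libraries, against 106, 106, 87.6 and 80.4 CPM in WT libraries (log2 fold change -1.09, SE 0.22, adjusted p = 0.00111 by edgeR). Of 20 Notch genes 5 fell and 1 rose, against 13.3% and 15.2% of all genes. Without scaling factors 13 Notch genes fell and none rose, against 3370 and 497 of all 8835 genes. dld averaged 4.43 ± 3.42 CPM in notum-1 and 26 ± 3.43 CPM in WT (log2 fold change -2.41, SE 0.40, adjusted p = 0.000178 by edgeR) and nrarpa, a Notch target that limits Notch signalling, averaged 20.1 ± 5.22 CPM in notum-1 and 54.1 ± 5.91 CPM in WT (log2 fold change -1.05, SE 0.23, adjusted p = 0.00185 by edgeR). The ligand gene dlc was among the 5 largest falls at 20 CPM or more (log2 fold change -2.76, SE 0.88, adjusted p = 0.0314 by edgeR), but did not pass in fits without WNT_DJ1 (adjusted p = 0.0856), WNT_DJ2 (0.0839), MG1 (0.0607) or MG2 (0.0584). tbx16, a T-box gene of mesoderm, fell by 2.76, and foxc1a, a forkhead gene of mesoderm and neural crest, by 2.96 (edgeR adjusted p = 4.41e-05 and 0.000153). fthl29, a ferritin heavy chain-like gene, averaged 2.61 ± 2.25 CPM in notum-1 and 51.8 ± 22.4 CPM in WT (log2 fold change -3.91, SE 0.56, adjusted p = 0.000145 by edgeR).

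Several of the largest changes in notum-1 were in genes with near-identical copies, where counting may have split or moved reads. zgc:165555.17 and zgc:165555.7, which are copies of 1 gene family, rose by 4.49 and 4.02 (edgeR adjusted p = 6.68e-05 and 0.000148). The 25 copies of the family in the matrix summed to 2007 ± 208 CPM in notum-1 and 381 ± 71.6 CPM in WT. rrm2.1 fell by 6.21 (edgeR adjusted p = 0.000722), whereas rrm2 and rrm2.1 together, which encode a subunit of ribonucleotide reductase, were at 412 ± 95.3 CPM in notum-1 and 595 ± 37.1 CPM in WT. si:ch211-113a14.24 rose by 3.99 (edgeR adjusted p = 0.00249), and si:ch211-152c2.3 had 81.1, 378, 59.1 and 473 CPM in notum-1 libraries, against 23.9, 24.7, 20.1 and 15.9 CPM in WT libraries (log2 fold change 3.88, SE 0.59, adjusted p = 0.000443 by edgeR).

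Of 15 heat shock genes in notum-1 2 rose and 2 fell, a share near the 28.6% of all genes called. Of 14 oxygen and glycolysis genes none rose and 3 fell, among them pfkfb4b, a regulator of glycolysis (log2 fold change -1.45, SE 0.21, adjusted p = 4.43e-05 by edgeR). Of 19 cell cycle genes 5 rose and none fell, while without scaling factors 1 rose and 5 fell, so no direction is given. cdk1, outside the rule for naming genes, had 267, 279, 283 and 398 CPM in notum-1 libraries, against 457, 492, 552 and 478 CPM in WT libraries (log2 fold change -0.26, SE 0.16, adjusted p = 0.21 by edgeR), and the deposited phase was G2M for 55.2 to 64.8% of epidermis 3 cells. Of other lists, none of 7 neural genes was called by edgeR or DESeq2 (1 at an unadjusted p under 0.05), 1 of 2 notochord genes fell, 1 of 4 lateral plate genes rose and 1 fell, and the neural crest gene foxd3, the only 1 of its list tested, fell by 2.42. The placode list had 1 tested gene, which was not called in any treatment, and no gene of the ciliated or myeloid lists was high enough to be tested. In DMH1, 3 of 7 neural, 2 of 2 notochord and 2 of 4 lateral plate genes fell.

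The remaining called members of the lists in notum-1 were, with log2 fold change and edgeR adjusted p, the inhibitory Smad gene smad7 (0.80, adjusted p = 0.000625), the FGF target etv5b (-0.55, adjusted p = 0.0165) and the Wnt targets sp5a (-1.23, adjusted p = 0.011) and tbxta (-1.37, adjusted p = 0.0467). The Notch genes were jag1b (0.81, adjusted p = 0.0163), notch1a (-0.61, adjusted p = 0.0436) and dla (-0.96, adjusted p = 0.0498), the ion transport genes atp2b1a (1.36, adjusted p = 0.000172), atp1a1a.1 (0.58, adjusted p = 0.0124) and atp6v1ab (-0.93, adjusted p = 0.00798) and the fin fold gene frem2a (-0.49, adjusted p = 0.0455). Oxygen and heat shock genes were ndrg1a (-2.77, adjusted p = 0.00153), egln3 (-3.15, adjusted p = 0.0197), hspb1 (1.102, adjusted p = 0.00479), hspa8 (0.45, adjusted p = 0.0213), hspe1 (-0.54, adjusted p = 0.00681) and hsp70.3 (-1.89, adjusted p = 0.0458), and cell cycle genes cenpf (1.2002, adjusted p = 0.000707), mcm7 (1.03, adjusted p = 0.00461), aurkb (0.60, adjusted p = 0.0163), tpx2 (0.44, adjusted p = 0.0342) and rrm1 (0.38, adjusted p = 0.0456). Genes of other tissues were myf5 (-2.02, adjusted p = 0.00559), myod1 (-2.37, adjusted p = 0.0063), tbx6 (-2.30, adjusted p = 0.016), noto (-1.96, adjusted p = 0.0172), tal1 (-2.10, adjusted p = 0.0131), hand2 (1.55, adjusted p = 0.0418) and foxd3 (-2.42, adjusted p = 0.00361). The 4 hsp70 copies summed to 1139 ± 616 CPM in notum-1 and 2098 ± 332 CPM in WT. Without scaling factors the calls lost, with their adjusted p, were jag1b (0.263), atp1a1a.1 (0.553), smad7 (0.0821), hspb1 (0.0605), hspa8 (0.959), mcm7 (0.0837), aurkb (0.476), tpx2 (0.987), rrm1 (0.72) and hand2 (0.148).

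Many of these smaller calls in notum-1 did not hold when 1 library was left out. By edgeR, the calls were lost for etv5b without WNT_DJ2 (adjusted p = 0.0532) or DJ1 (adjusted p = 0.0501), sp5a without WNT_DJ2 (adjusted p = 0.0525), hspa8 without DJ1 (adjusted p = 0.0661) or DJ2 (adjusted p = 0.0645) and tbx6 without WNT_DJ1 (adjusted p = 0.0508) or WNT_DJ2 (adjusted p = 0.0595). They were also lost for jag1b without any 1 of WNT_DJ1, WNT_MG1 and DJ1 (adjusted p = 0.0567 to 0.101), egln3 without any 1 of WNT_DJ1, WNT_MG1 and DJ2 (adjusted p = 0.0565 to 0.062) and noto without any 1 of WNT_DJ1, WNT_DJ2 and MG1 (adjusted p = 0.0562 to 0.0578). The same held for aurkb without any 1 of WNT_DJ2, DJ1 and DJ2 (adjusted p = 0.052 to 0.0534) and tpx2 without any 1 of WNT_MG1, WNT_MG2, DJ1 and DJ2 (adjusted p = 0.0855 to 0.11). Further losses were hand2 without any 1 of WNT_DJ1, WNT_DJ2, WNT_MG2, DJ1, MG1 and MG2 (adjusted p = 0.0723 to 0.0998) and frem2a without any 1 of WNT_DJ2, WNT_MG2, DJ1, DJ2, MG1 and MG2 (adjusted p = 0.0726 to 0.153). The calls of dla without any 1 of WNT_DJ1, WNT_DJ2, WNT_MG2, DJ1, MG1 and MG2 (adjusted p = 0.0791 to 0.19), notch1a without any 1 of WNT_DJ1, WNT_DJ2, WNT_MG2, DJ1, DJ2, MG1 and MG2 (adjusted p = 0.0572 to 0.156) and tbxta without any 1 of WNT_DJ1, WNT_DJ2, WNT_MG1, DJ1, DJ2, MG1 and MG2 (adjusted p = 0.0548 to 0.157) were lost. So were those of rrm1 without any 1 of WNT_DJ1, WNT_DJ2, WNT_MG1, WNT_MG2, DJ1, DJ2 and MG2 (adjusted p = 0.0503 to 0.139) and hsp70.3 without any 1 of WNT_DJ2, WNT_MG1, WNT_MG2, DJ1, DJ2, MG1 and MG2 (adjusted p = 0.0595 to 0.0972). With the common limit on cells the calls lost, with their adjusted p, were notch1a (0.203), dla (0.13), frem2a (0.0564), msgn1 (0.057), tbxta (0.248), hsp70.3 (0.059), tpx2 (0.169), rrm1 (0.156), myf5 (0.0826) and tbx6 (0.0601). With libraries thinned they were tfap2a (0.0536), notch1a (0.0945), dla (0.0574), atp1a1a.1 (0.0501), egln3 (0.177) and rrm1 (0.243). With all genes of at least 1 UMI tested they were dlc (0.0557), tbxta (0.12), hspa8 (0.126), hsp70.3 (0.0848), tpx2 (0.116) and rrm1 (0.22), with cells called G2M alone jag1b (0.0522), notch1a (0.0876), frem2a (0.0707), tbxta (0.0508), rrm1 (0.121) and hand2 (0.0809), with only notum-1 and WT libraries in the fit tfap2a (0.0571), dla (0.0534), frem2a (0.101), hsp70.3 (0.0524), tpx2 (0.0523) and rrm1 (0.0715), and in DESeq2 notch1a (0.0567), dla (0.0508) and hsp70.3 (0.0856).

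For most genes no difference was called between the treatment effects in epidermis 3 and epidermis 1. The difference of the log2 fold changes was tested for 10007 genes, with each library holding both classes. The test called 151 genes under DMH1 (1.51%), 173 under SU5402 (1.73%) and 628 under notum-1 (6.28%). Of these, 48, 73 and 246 had the higher log2 fold change in epidermis 3, and 103, 100 and 382 the lower one. Leaving out 1 library lowered the count by more than 1.5 times in several cases. In DMH1 it was 97 without DMH0, 93 without DMH2 and 74 without MG1. In SU5402 it was 102 without SU2, 89 without SU3, 109 without DJ2, 105 without MG1 and 110 without MG2. In notum-1 it was 381 without WNT_DJ2. Against epidermis 4, a comparison added after the values were seen, 27, 19 and 79 genes differed. Of the 24 differences from epidermis 1 that the naming rule gave, 4 were also called against epidermis 4. Of the rest, 15 kept their sign without a call and 5 turned sign. With no term for the library, edgeR called 0, 0 and 20.

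In DMH1, h1fx, which encodes a linker histone, had 135 ± 29.6 CPM in DMH1 and 59.7 ± 20.2 CPM in WT in epidermis 3, and 149.9 ± 14.7 CPM in DMH1 and 144 ± 30.8 CPM in WT in epidermis 1, a difference of 1.05 (SE 0.12, adjusted p = 5.33e-08 by edgeR). The level in epidermis 3 of DMH1 was near that in epidermis 1 of either group. dusp6 and the exchange factor gene net1 differed by 0.83 and 0.66 (edgeR adjusted p = 0.000128 and 0.000143). For zic2b, a neural zinc finger gene, the log2 fold changes were -0.56 in epidermis 3 and -2.09 in epidermis 1, a difference of 1.54 (SE 0.24, adjusted p = 6.4e-05 by edgeR). insl5a, which encodes an insulin-like peptide, had 193 ± 29.2 CPM in DMH1 and 357 ± 8.13 CPM in WT in epidermis 3, and 144 ± 23.7 CPM in DMH1 and 127 ± 20.6 CPM in WT in epidermis 1 (difference -1.15, SE 0.12, adjusted p = 2.48e-07 by edgeR). The lower effects also included zgc:173587, the adhesion gene bcam and tfap2c, by 1.24, 0.65 and 0.48 on the log2 scale. Among list genes, bambib fell less in epidermis 3 than in epidermis 1 (difference 0.97, SE 0.18, adjusted p = 0.00512 by edgeR). Against epidermis 4 the differences were 0.021 for insl5a, 0.047 for tfap2c and -0.046 for bambib, and against all other cells -0.081 for zic2b and 0.18 for tfap2c, the opposite signs of those against epidermis 1, and none was called. Of the genes named here, only h1fx and zgc:173587 were called against epidermis 4 (0.97 and -1.83, edgeR adjusted p = 0.000421 and 1.01e-10).

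In SU5402, the cyclin D1 gene ccnd1 had the more positive effect in epidermis 3. It had 168 ± 49.7 CPM in SU5402 and 82.9 ± 13.2 CPM in WT in epidermis 3, and 182 ± 56.2 CPM in SU5402 and 193 ± 31.8 CPM in WT in epidermis 1 (difference 1.07, SE 0.12, adjusted p = 2.64e-08 by edgeR), and the difference for h1fx was 1.15 (SE 0.13, adjusted p = 2.64e-08 by edgeR). lmo4b, which encodes a LIM-only cofactor, changed by 0.57 in epidermis 3 and -0.58 in epidermis 1 (difference 1.13, SE 0.16, adjusted p = 8.32e-05 by edgeR), and sema4bb, a semaphorin gene, by 0.24 in epidermis 3 and -1.27 in epidermis 1 (difference 1.40, SE 0.17, adjusted p = 1.08e-07 by edgeR). foxi1 had 21.1 ± 5.33 CPM in SU5402 and 4.35 ± 2.35 CPM in WT in epidermis 3, and 45 ± 15 CPM in SU5402 and 30.2 ± 10.5 CPM in WT in epidermis 1 (difference 1.67, SE 0.30, adjusted p = 0.000423 by edgeR). sp8b fell less in epidermis 3 than in epidermis 1 (-1.75 in epidermis 3 and -4.37 in epidermis 1; difference 2.39, SE 0.48, adjusted p = 0.0119 by edgeR). cdk1 fell more (-0.91 in epidermis 3 and -0.16 in epidermis 1; difference -0.75, SE 0.16, adjusted p = 0.0177 by edgeR). FP236812.1, net1, zgc:173587 and serp1 also had the lower effect, by 1.11, 0.76, 1.09 and 0.56. In FP236812.1 and zgc:173587 the SU5402 libraries of epidermis 3 split into the same pairs as in spry2. The sign turned, with no call, for sp8b against epidermis 4 (-0.37) and for sema4bb against all other cells (-0.13). Of the genes named here, only h1fx and zgc:173587 were called against epidermis 4 (1.12 and -1.74, edgeR adjusted p = 0.000172 and 3.14e-06).

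In notum-1, ptgs1, which encodes a cyclooxygenase, had 176 ± 35.9 CPM in notum-1 and 204 ± 38.5 CPM in WT in epidermis 3, and 57.6 ± 10.8 CPM in notum-1 and 159 ± 27.4 CPM in WT in epidermis 1 (difference 1.17, SE 0.12, adjusted p = 3.24e-09 by edgeR). tmeff1b, LO018188.1 and triqk also had the higher effect in epidermis 3, by 0.79, 1.57 and 1.37. The junction genes cldni and jupa, the gene of plakoglobin, had lower effects in epidermis 3 than in epidermis 1. For cldni the log2 fold changes were -1.06 in epidermis 3 and -0.47 in epidermis 1 (difference -0.63, SE 0.06, adjusted p = 2.06e-08 by edgeR), and for jupa -0.74 in epidermis 3 and 0.02 in epidermis 1 (difference -0.79, SE 0.10, adjusted p = 5.11e-08 by edgeR). snx5, a sorting nexin gene, had 14.6 ± 2 CPM in notum-1 and 38.6 ± 6.24 CPM in WT in epidermis 3, and 51.2 ± 20.3 CPM in notum-1 and 43.3 ± 9.81 CPM in WT in epidermis 1 (difference -1.83, SE 0.22, adjusted p = 2.19e-08 by edgeR), and serp1 differed by -0.93 (SE 0.10, adjusted p = 5.97e-09 by edgeR). Several list genes that were low in epidermis 3 of WT rose more there on the log2 scale, while tbx2b and bmp7a rose by more CPM in epidermis 1. tbx2b had 32.1 ± 9.41 CPM in notum-1 and 3.75 ± 1.45 CPM in WT in epidermis 3, and 122 ± 19.2 CPM in notum-1 and 39.6 ± 2.45 CPM in WT in epidermis 1, a difference of 1.47 (SE 0.34, adjusted p = 0.00605 by edgeR). bmp7a and foxi1 differed by 1.52 and 1.44 (edgeR adjusted p = 0.0391 and 0.000883). For bmp7a the means were 21.8 CPM in notum-1 and 2.52 CPM in WT in epidermis 3, and 87.5 and 32.8 CPM in epidermis 1. sp5l fell less in epidermis 3 (difference 1.47, SE 0.29, adjusted p = 0.00342 by edgeR). Against epidermis 4 the differences turned sign for cldni, jupa, snx5 and foxi1, at 0.40, 0.014, 0.23 and -0.65, and none of the 4 was called. No other gene named here was called against epidermis 4 either, among them ptgs1, tbx2b, bmp7a and sp5l (edgeR adjusted p = 0.575, 0.319, 0.575 and 0.851).

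**Figure D5:**
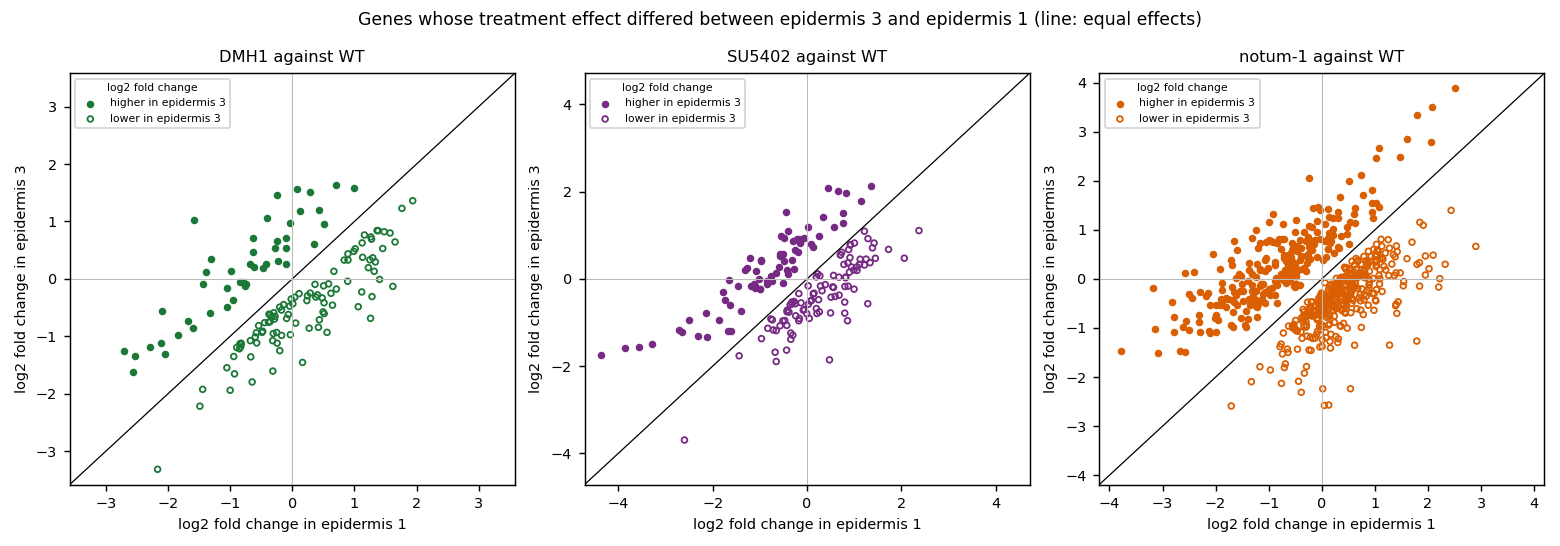
Log2 fold change against WT in epidermis 3 (vertical) and epidermis 1 (horizontal) of the genes whose effects differed between both classes and which were tested in each (147 for DMH1, 170 for SU5402 and 608 for notum-1). Filled points have the higher log2 fold change in epidermis 3 and open points the lower one, and the line marks equal effects. The log2 fold changes had opposite signs in the 2 classes for 50, 57 and 278 of these genes. These genes were chosen for differing effects, which favours opposite signs, and the share over all genes tested is not given here. The counts go by sign alone, whether or not the change in either class was called. For jupa in notum-1, the log2 fold change in epidermis 1 was 0.019 (edgeR adjusted p = 0.946).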

How the data were processed

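Single-cell libraries of 16 pools of zebrafish tails were processed with Cell Ranger and GRCz11, per the submitters' processing notes, which give no version. A matrix of UMI counts (21301 genes, 130661 cells) was deposited, with a table of class, library, treatment and cell cycle phase, and the mitochondrial percent of each cell. The SU5402 library names match single labelled samples. For the other libraries the names and the treatment column give the group only, and the treatment called WNT was taken as notum-1. Filters and doublet treatment are not stated, and no doublet caller was run. Counts were summed over epidermis 3 cells per library and, for printed levels, divided by the library's sum (CPM). Each treatment was compared with WT by edgeR 4.0.16 (quasi-likelihood F test, TMM, filterByExpr, all 16 libraries in 1 fit), with Benjamini-Hochberg adjustment over 8835 genes and a threshold of 0.05. Interactions used the sums of epidermis 3 and 1 with library as block. DESeq2 1.42.0 was an alternative. The edgeR tests were checked on simulated counts. Cells were thinned to 2000 UMIs for shares.

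Genes named were, in WT, the 10 largest ratios above and 6 below the nearest other class at 50 CPM or more; per treatment, the 5 largest rises and falls at 20 CPM or more without overlap, at most 6 called genes per list by smallest p, and every ionocyte factor tested; per interaction, 4 genes on either side. Members, lists and rules were chosen with earlier results of these data known. The lists covered ionocyte factors, ion transport, Notch, basal epidermis, periderm, fin fold, BMP, FGF and Wnt response, oxygen and glycolysis, heat shock, damage response (1 item of which is not reported here), cell cycle, and neural, mesoderm, notochord, lateral plate, neural crest, placode, ciliated and myeloid markers.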

Additional observations from a re-analysis of the deposited data

Results flagged for a closer look

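Of 321 groups of 4 libraries checked, 22 had 1 library apart from the other 3 by Dixon's criterion, where chance gives about 1 in 20. In DMH1, dld was highest in DMH2 at 8.33 CPM, foxi1 in DMH4 at 6.43 CPM, lmo2 in DMH2 at 29.3 CPM and notch3 in DMH3 at 496 CPM. In SU5402, cenpf was highest in SU4 at 175 CPM, gata2a and gata3 in SU3 at 115 and 105 CPM, and top2a lowest in SU3 at 170.3 CPM. In notum-1, atp1a1a.1, cdk1 and cldnb were highest in WNT_MG2 at 106, 398 and 28.8 CPM, smad7 highest in WNT_DJ2 at 74.9 CPM, and sp5l lowest in WNT_DJ1 at 30.6 CPM. In WT, bmp7a and egln3 were highest in DJ2 at 5.10 and 20.0 CPM, col2a1a and itga3b in MG2 at 11.5 and 6.18 CPM, and lef1 and noto in MG1 at 62.0 and 18.4 CPM. The lowest WT values apart were atp2b1a at 13.2 CPM and fras1 at 52.1 CPM in MG2, and tfap2a at 223 CPM in MG1.

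The treatment effect differed between epidermis 3 and epidermis 1 by the interaction test for the genes named in the comparison of both classes. As effect in epidermis 3 minus that in epidermis 1, on the log2 scale, the values in DMH1 were 1.05 for h1fx, 1.54 for zic2b, 0.83 for dusp6, 0.66 for net1, -1.24 for zgc:173587, -1.15 for insl5a, -0.48 for tfap2c and -0.65 for bcam. In SU5402 they were 1.07 for ccnd1, 1.15 for h1fx, 1.40 for sema4bb, 1.13 for lmo4b, -1.11 for FP236812.1, -0.76 for net1, -1.09 for zgc:173587 and -0.56 for serp1. In notum-1 they were 1.17 for ptgs1, 0.79 for tmeff1b, 1.57 for LO018188.1, 1.37 for triqk, -0.93 for serp1, -0.63 for cldni, -1.83 for snx5 and -0.79 for jupa.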

How the results depend on the processing

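Counts of called genes depended on the cells and UMIs used. With the common limit on cells, DMH1 had 2003 calls (934 higher, 1069 lower), SU5402 1655 (779 and 876) and notum-1 1624 (878 and 746). That limit left 19 to 107 cells per library in DMH1, 15 to 72 in SU5402 (SU1, with 3 left, was dropped), 35 to 240 in notum-1 and 83 to 321 in WT. With each library thinned to the smallest total, DMH1 had 1746 (889 and 857), SU5402 2270 (1167 and 1103) and notum-1 1440 (799 and 641). Without scaling factors notum-1 had 3867 (497 and 3370). Leaving out 1 library gave 2692 to 2946 calls in DMH1 (1291 to 1445 higher, 1356 to 1565 lower), 2807 to 3667 in SU5402 (1393 to 1826, 1414 to 1841) and 1965 to 2608 in notum-1 (1085 to 1374, 878 to 1234). The genes that set epidermis 3 apart in WT numbered 51 to 71 higher and 15 to 23 lower with 1 library left out, where no overlap is easier to meet. At 4-fold they numbered 2 and 0.

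Interaction calls were 44, 31 and 324 in DMH1, SU5402 and notum-1 against epidermis 1, 2 and 4 summed, 467, 293 and 361 against all other cells, 27, 19 and 79 against epidermis 4, and 74 to 114, 89 to 137 and 381 to 633 with 1 library left out. Without the replicate block that ties both classes of a library, edgeR called 0, 0 and 20 genes, with 248, 324 and 724 at an unadjusted p under 0.05.

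Some signs turned. foxi1 in DMH1, with no change in the full data, had a log2 fold change of -0.025 without scaling factors, -0.31 to 0.36 with 1 library left out (-0.31 without MG1, -0.19 without DMH4), -0.12 without the cells with the most UMIs, -0.30 thinned and -0.015 with G2M cells alone. In notum-1, tp63 was -0.21 to 0.0038 with 1 library left out (0.0038 without WNT_DJ2), and tpx2 and rrm1 were -0.0041 and -0.073 without scaling factors. Against all other cells the effect differences were -0.081 for zic2b and 0.18 for tfap2c in DMH1 and -0.13 for sema4bb in SU5402. Against epidermis 4 they were 0.021 for insl5a and 0.047 for tfap2c in DMH1, and 0.40 for cldni, 0.23 for snx5 and 0.014 for jupa in notum-1. The cause of these changes was not tested.

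The notum-1 and WT libraries share name endings. A replicate block by ending gave 2046 calls (1165 higher, 881 lower), and deviations of like-named libraries correlated at -0.0043, 0.0592, 0.0209 and 0.0781, so they were not treated as pairs. For DMH1 and SU5402 no such block could be fitted, since their library names share no ending with those of WT. Depth limited genes of low level most, and those not tested include foxi3a and foxi3b.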
